A study of Callithrix jacchus with 5 samples.

Results

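RNA sequencing of cultured marmoset cells (Callithrix jacchus) gave the transcript levels of 7 regulators of the mesenchymal and epithelial states. They were chosen by name, with earlier results of these data known. The transcription factors ZEB1, ZEB2, SNAI2, TWIST2 and PRRX1 belong to the mesenchymal state, and OVOL2 and ESRP1 to the epithelial state. All 7 matched an identifier among the 30811 genes of the count table, and all 7 passed the filter on low counts. The 5 libraries comprised 1 of fibroblasts (E01F, P number 1), 1 from each of 3 embryonic stem (ES) cell lines (No40, DSY127 and No20, P numbers 63, 17 and 45), and 1 of induced pluripotent stem (iPS) cells (RNAiPS_1). The iPS cells were derived from marmoset fibroblasts by RNA-based reprogramming, per the series title. The labels do not say whether E01F was their source, or give the culture conditions. Values are CPM, the share of a library's counts expressed per 1e6 and scaled by TMM factors, and levels of the lone libraries carry 95% exact Poisson intervals, which cover counting error only.

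Epithelial cells adhere to each other through E-cadherin, desmosomes and tight junctions, whereas mesenchymal cells such as fibroblasts secrete and move through matrix. ZEB1 and ZEB2 are zinc finger and homeodomain repressors that bind E-box sequences of epithelial genes, SNAI2 (also called SLUG) is a zinc finger repressor of the same class of sites, TWIST2 is a basic helix-loop-helix factor and PRRX1 a paired-related homeodomain factor of mesenchyme. OVOL2 is a zinc finger repressor that acts against ZEB1, and ESRP1 is an RNA-binding protein that sets epithelial splicing. Reprogramming of fibroblasts passes through a mesenchymal-to-epithelial transition, and pluripotent stem cells of primates express E-cadherin.

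Coordinates are those of the files, and their genome build is not stated. ZEB1 (ENSCJAG00000013332) spans 28240615 to 28461066 on chromosome 7, plus strand. ZEB2 (ENSCJAG00000012457) spans 75008542 to 75144706 and TWIST2 (ENSCJAG00000023006) 155376290 to 155400114, both on the plus strand of chromosome 6. SNAI2 (ENSCJAG00000013499) spans 1791883 to 1795626 on the minus strand and ESRP1 (ENSCJAG00000000043) 46442265 to 46508279 on the plus strand of chromosome 16. PRRX1 (ENSCJAG00000009928) spans 35809565 to 35884257 on the minus strand of chromosome 18, and OVOL2 (ENSCJAG00000005049) 23624191 to 23667228 on the minus strand of chromosome 5. The exons of none of the 7 genes overlapped an exon of another gene in the files (0 overlapping genes for each). The gene models ranged from 820 bases for PRRX1 to 8351 bases for ZEB2.

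Total counts were 58601185 for the fibroblasts, 34111715 to 46523012 for the ES lines and 5746449 for the iPS cells, so that 3 counts stood for 0.507 CPM in the iPS library and 0.061 to 0.083 CPM in the others. The 6 pluripotency markers (POU5F1, NANOG, SOX2, LIN28A, SALL4 and DNMT3B) summed to 2912 to 5806 CPM for ES cells, 4341 CPM for iPS cells and 25.9 CPM for fibroblasts. The 6 matched of 7 fibroblast markers (COL1A1, COL1A2, COL3A1, DCN, PDGFRA and FBN1) summed to 62902 CPM in the fibroblasts, 895 to 1847 CPM in ES cells and 10182 CPM in iPS cells. Most of the iPS sum came from the collagens COL1A1 (4922 CPM), COL1A2 (3447 CPM) and COL3A1 (1684 CPM). In the iPS library 4 of the 6 fibroblast markers, the collagens and FBN1, stood above every ES line. The median log2 fold change of the 6 against the ES lines was 1.49. The others, DCN (6.59 CPM) and PDGFRA (25.2 CPM), stood below their ES means of 11.2 and 39.6 CPM. Only the ES lines were replicated, so each test took its spread from those 3 lines, and its p-values assume that a lone library varies like an ES line.

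All 5 mesenchymal factors were higher in the fibroblast library than in the ES lines, and both epithelial regulators were lower. In this comparison 8.8% of 17462 genes tested were called higher and 9.28% lower (edgeR quasi-likelihood test, adjusted p under 0.05 over all genes). By level alone, 35.4% of genes stood above every ES line in the fibroblasts and 39% below every line. The 5 mesenchymal factors split in the iPS library. ZEB2 and PRRX1 stood above every ES line and above the fibroblast library, ZEB1 and TWIST2 stood between the ES lines and the fibroblasts, and SNAI2 stood below every ES line.

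**Figure D1:**
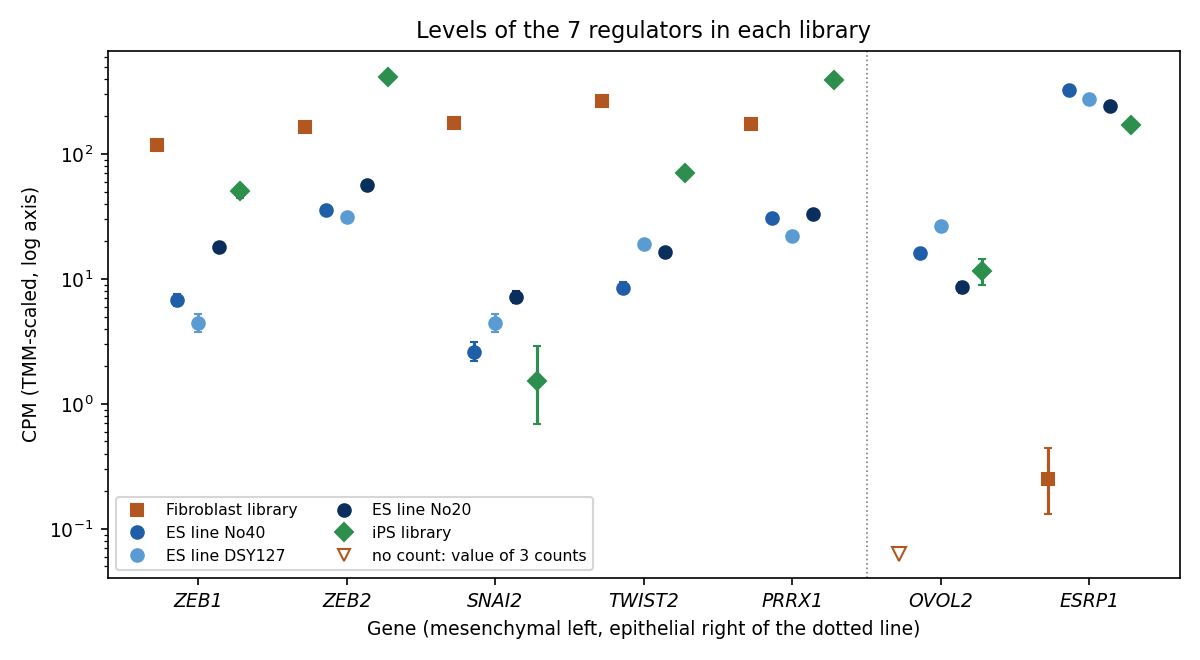
Level of each regulator in the 5 libraries, in TMM-scaled CPM on a log axis, with 95% exact Poisson intervals. SNAI2 is at 177 CPM in fibroblasts and 1.52 CPM in the iPS library, whereas ZEB2 (415 CPM) and PRRX1 (389 CPM) are highest in the iPS library. OVOL2 had no count in fibroblasts and is drawn there at the value of 3 counts.

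SNAI2 had the steepest fibroblast pattern of the 5 mesenchymal factors. It stood at 177 CPM in the fibroblast library, at 2.62, 4.45 and 7.14 CPM in ES lines No40, DSY127 and No20, and at 1.52 CPM in the iPS library. The fibroblast level was 37.4-fold the ES mean of 4.74 ± 2.27 CPM (SD, n = 3; log2 fold change 5.22 ± 0.54 SE, adjusted p = 0.00266, edgeR quasi-likelihood test). The iPS value rests on 9 counts, and its interval of 0.696 to 2.89 CPM overlapped the interval of ES line No40, 2.19 to 3.11 CPM. Between iPS cells and ES lines SNAI2 did not pass (log2 fold change -1.64 ± 0.76, adjusted p = 0.618, edgeR). Against fibroblasts it was lower in the iPS library, by a log2 fold change of -6.86 ± 0.95 (adjusted p = 0.011, edgeR), which did not pass with limma voom (adjusted p = 0.061).

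TWIST2 stood at 268 CPM in the fibroblast library. In the ES lines it stood at 8.53, 19.02 and 16.4 CPM for No40, DSY127 and No20, and in the iPS library at 70.7 CPM (interval 64.05 to 77.8). The fibroblast level lay above all ES lines, with a log2 fold change of 4.19 ± 0.45 (adjusted p = 0.003, edgeR). The iPS level was 4.82-fold the ES mean of 14.7 ± 5.47 CPM and above each line, but this did not pass over all genes (log2 fold change 2.27 ± 0.46, adjusted p = 0.152, edgeR). Nor did TWIST2 pass between the iPS and fibroblast libraries (-1.92 ± 0.63, adjusted p = 0.0915, edgeR).

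ZEB1 stood at 119 CPM in the fibroblast library, at 6.83, 4.45 and 18.1 CPM in No40, DSY127 and No20, and at 50.4 CPM in the iPS library (interval 44.8 to 56.4). The fibroblast level was 12.1-fold the ES mean (log2 fold change 3.597 ± 0.684, adjusted p = 0.016, edgeR). Both ratios depended on line No20, since without it the fibroblast level was 21.04-fold and the iPS level 8.93-fold the ES mean, against 5.14-fold for the iPS level with all 3 lines. The iPS library did not differ from the ES lines past the threshold (2.36 ± 0.70, adjusted p = 0.361, edgeR), whereas without No20 it did (adjusted p = 0.00887, edgeR). Without No40 the fibroblast difference of ZEB1 did not pass (adjusted p = 0.0776, edgeR).

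ZEB2 was at its highest in the iPS cells. It stood at 35.5, 31.3 and 56.9 CPM in No40, DSY127 and No20, at 164 CPM in the fibroblasts and at 415 CPM in the iPS library (interval 399 to 432). The fibroblast library exceeded the ES lines by a log2 fold change of 1.99 ± 0.40 (adjusted p = 0.0185, edgeR), which did not pass without No40 (adjusted p = 0.0696, edgeR). The iPS level was 10.06-fold the ES mean of 41.2 ± 13.7 CPM and 2.53-fold the fibroblast level. Against the ES lines the log2 fold change was 3.33 ± 0.39 with adjusted p = 0.0559 (edgeR), just outside the threshold. It passed in 7 of 11 alternative fits. Against the fibroblast library ZEB2 did not pass (1.34 ± 0.54, adjusted p = 0.146, edgeR).

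PRRX1 was the 1 regulator of the 7 that was called between iPS cells and ES lines, a comparison in which 0.109% of genes tested were called, all of them higher. It stood at 31.04, 21.999 and 33.05 CPM in No40, DSY127 and No20, at 174 CPM in the fibroblasts and at 389 CPM in the iPS library (interval 373 to 405). The iPS level was 13.6-fold the ES mean of 28.7 ± 5.89 CPM (log2 fold change 3.76 ± 0.34, adjusted p = 0.0349, edgeR). It did not pass without No40 (adjusted p = 0.32, edgeR) or with limma voom (adjusted p = 0.0607). The fibroblast level was 6.05-fold the ES mean (2.60 ± 0.34, adjusted p = 0.00512, edgeR). Between the iPS and fibroblast libraries the ratio of 2.24 did not pass (1.16 ± 0.47, adjusted p = 0.144, edgeR).

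Set against all genes, 26.5% of the 17462 tested stood above every ES line in the iPS library, as 4 of the 5 mesenchymal factors did. The share that also exceeded the ES mean at least 4-fold was 5.26%, and these 4 factors were all in that share. ZEB2 and PRRX1 were among the 21% of genes above both the ES lines and the fibroblasts, and ZEB1 and TWIST2 among the 5.55% above the ES lines and below the fibroblasts. SNAI2 was among the 31.5% below every ES line. The regulators were chosen with earlier results of these data known, so shares over all genes are no test of them.

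**Figure D2:**
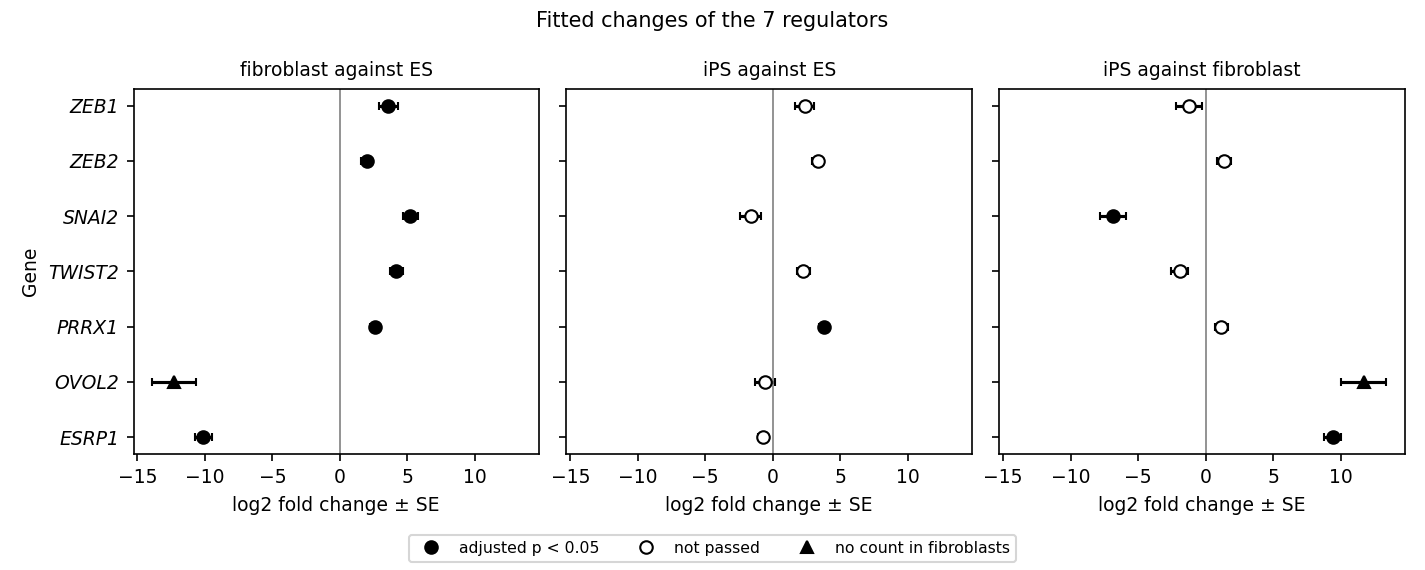
Fitted log2 fold change ± SE of each regulator in the 3 comparisons, filled where the adjusted p passed. All 7 are filled for fibroblasts against ES lines, PRRX1 alone (3.76) for iPS cells against ES lines, and SNAI2, OVOL2 and ESRP1 for iPS cells against fibroblasts. Triangles mark OVOL2 where the fibroblast library had no count, so that the fitted size is no bound.

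The epithelial regulators were near or at 0 in fibroblasts. No read was counted for OVOL2 in fibroblasts, against 16.3, 26.7 and 8.60 CPM in No40, DSY127 and No20 and 11.5 CPM in the iPS library (interval 8.93 to 14.6). Taking 3 counts in that library as the floor, OVOL2 was at least 273-fold lower in fibroblasts than the ES mean of 17.2 ± 9.09 CPM (adjusted p = 0.00514, edgeR) and at least 182-fold lower than in the iPS library (adjusted p = 0.0117, edgeR; 0.102 with limma voom). The interval of the fibroblast value reached 0.0775 CPM, above that floor of 0.063 CPM, so both folds are bounds on the floor only. The iPS value of OVOL2 lay inside the ES range (log2 fold change -0.58 ± 0.73, adjusted p = 0.86, edgeR).

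ESRP1 was the most even of the 7 genes across ES lines, with a coefficient of variation of 14.8%. It stood at 326, 274 and 243 CPM in No40, DSY127 and No20, at 172 CPM in the iPS library (interval 162 to 183) and at 0.252 CPM, or 12 counts, in the fibroblasts (interval 0.13 to 0.44). The ES mean of 281 ± 41.6 CPM was 1115-fold the fibroblast level (log2 fold change -10.10 ± 0.62, adjusted p = 0.00119, edgeR), and the iPS level was 683-fold that level (9.40 ± 0.62, adjusted p = 0.00441, edgeR). The iPS level lay below all 3 ES lines, 0.612 times their mean, and did not pass (-0.71 ± 0.36, adjusted p = 0.653, edgeR). In bulk libraries, fewer cells that express a gene and less RNA per cell cannot be told apart.

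Between the iPS and fibroblast libraries 3 of the 7 regulators passed, OVOL2 and ESRP1 as higher and SNAI2 as lower in iPS cells. Over all genes tested 7.69% were called higher and 4.99% lower. Both groups hold 1 library, so this test took its spread from the ES lines alone. With total counts in place of TMM factors the median over all genes shifted on the log2 scale by 0.34 in this comparison and by -0.38 in fibroblasts against ES lines. The calls over all genes then split into 1636 higher and 615 lower in place of 1342 and 871, and into 1066 higher and 2016 lower in place of 1537 and 1620. No regulator changed direction or lost its call with that scaling in the 3 comparisons.

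To compare genes with each other, CPM was divided by the length of each gene model in kilobases (kb). In fibroblasts the order was PRRX1 (212 CPM per kb), TWIST2 (198), SNAI2 (83.7), ZEB2 (19.6), ZEB1 (18.6), ESRP1 (0.064) and OVOL2 without a count. In the ES lines ESRP1 led at 71.3 ± 10.6 CPM per kb, followed by PRRX1 at 34.996 ± 7.18. TWIST2 (10.9 ± 4.05), OVOL2 (7.501 ± 3.97) and ZEB2 (4.94 ± 1.64) came next, with each neighbour within the spread of the lines, as were SNAI2 (2.24 ± 1.07) and ZEB1 (1.54 ± 1.15). In the iPS library PRRX1 led at 475 CPM per kb, and TWIST2 (52.3), ZEB2 (49.7) and ESRP1 (43.7) followed, with SNAI2 last at 0.72. The Poisson intervals of TWIST2 and ZEB2 overlapped per kb in the iPS library.

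The sum of the 5 mesenchymal factors per kb was 532 in fibroblasts, 50.7, 47.5 and 65.5 in ES lines No40, DSY127 and No20, and 585 in the iPS library. The sum of OVOL2 and ESRP1 per kb was 0.064, then 89.8, 81.2 and 65.6, and 48.7. The ratio of the first sum to the second was therefore 0.565, 0.585 and 0.999 in the ES lines and 12.02 in the iPS library. PRRX1, with the shortest gene model, made up most of the iPS sum.

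Among the ES lines, No20 held the highest level of 4 of the 5 mesenchymal factors and the lowest level of both epithelial regulators. Over all genes No20 was the highest of the 3 lines for 33.1% and the lowest for 35.6%. The corresponding shares were 36% and 33.8% for No40, and 30.9% and 30.6% for DSY127. ZEB1 differed most, 4.07-fold between No20 and DSY127, followed by OVOL2, 3.10-fold in the other direction between the same lines. TWIST2 was the exception, highest in DSY127. Each line is a single library, so these are values with no test of the lines.

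**Figure D3:**
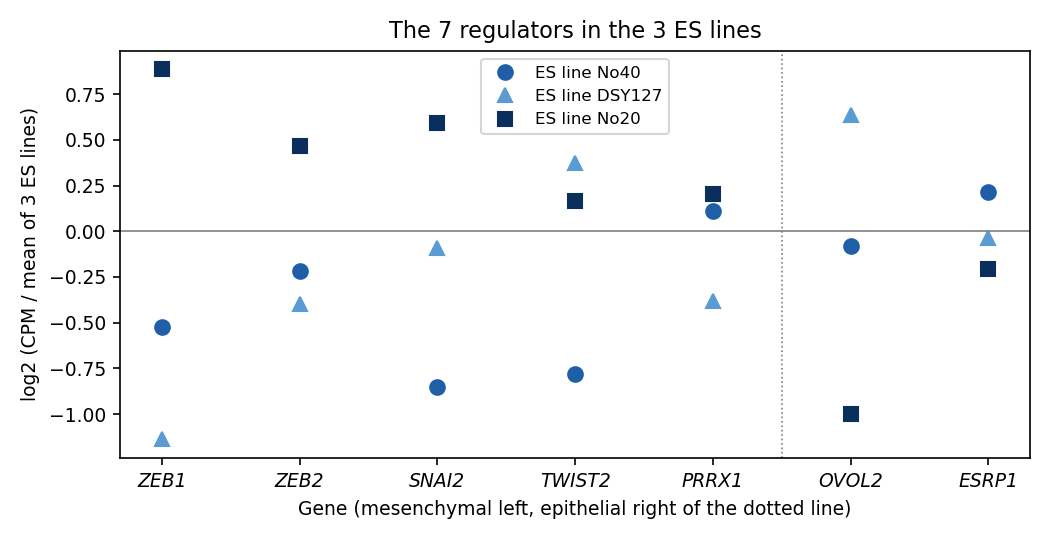
Each regulator in the 3 ES lines, as log2 of the CPM over the mean of the 3 lines. Line No20 (squares) is highest for ZEB1, ZEB2, SNAI2 and PRRX1 and lowest for OVOL2 and ESRP1.

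The genes around the regulators followed the same order of lines in part. Among 13 other epithelial regulators, No20 was the lowest line for 10, against 35.6% of all genes. Among 20 junction and epithelial genes that ZEB and SNAI factors repress it was the lowest for 13. DSY127 was the highest line for 14 of those 20, against 30.9% of all genes. CDH1, which encodes E-cadherin, stood at 817, 528 and 212 CPM in No40, DSY127 and No20. The 21 mesenchymal products did not follow this order: each line was the highest for 7, and No20 was also the lowest for 7. VIM, an intermediate filament gene, was among those highest in No20 and stood at 429, 448 and 1240 CPM. CDH2, which encodes N-cadherin, stood at 31.2, 46.8 and 159 CPM. CDH1, VIM and CDH2 were picked with their values known and do not stand for their lists. Markers of early mesoderm and endoderm also differed between lines. No20 was highest for 3 of 5 matched early mesoderm markers and 2 of 4 endoderm markers, against 33.1% of all genes. Among these were EOMES (67.1 CPM against 5.95 and 11.7 in No40 and DSY127) and MIXL1 (24.7 against 3.94 and 6.67). GATA6, of the endoderm markers, stood at 89.9 against 16.4 and 38.3 CPM. EOMES, MIXL1 and GATA6 were picked with their values known. TBXT was highest in DSY127, at 115 CPM against 10.97 and 9.31 in No40 and No20. The summed early mesoderm markers were therefore highest in DSY127 (134 CPM), with No20 at 103 and No40 at 23.6 CPM. The endoderm markers were highest in No20 (114 CPM), with DSY127 at 72.8 and No40 at 33.1 CPM. No marker of either list was at 0 in all lines. This was not particular to early mesoderm and endoderm. No20 was also highest for 3 of 4 neural crest and melanocyte, 3 of 5 endothelial, 2 of 3 blood and 2 of 4 neural markers. It was highest for 1 of 5 muscle, 1 of 3 keratinocyte and 1 of 6 fibroblast markers. For pluripotency and for trophoblast and amnion markers the count was 0. The part of any of these markers in the order of the lines was not tested.

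Profiles over the 5 libraries were compared by the Euclidean distance of centred log2 CPM among 10124 genes with a symbol and a mean of at least 1 CPM. PRRX1 and ZEB2 were nearest to each other among the regulators, at a distance of 0.692, and no gene lay nearer to PRRX1 than ZEB2 did. TRPS1 (0.737), a zinc finger repressor, and MEIS2 (0.763), a homeodomain factor, came next. HGF, PRR16 and IL1RAP lay nearest to ZEB2, at 0.475 to 0.664. HGF, the ligand of the MET receptor, stood at only 0.278 to 0.732 CPM in the ES lines, 1.47 CPM in fibroblasts and 5.41 CPM in the iPS library. These distances rest on 5 libraries and are descriptions.

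ZEB1 and TWIST2 were each other's nearest regulator, at 1.73, with 47 genes nearer to ZEB1 and 70 nearer to TWIST2. The nearest to ZEB1 were RUNX1 (0.726), SCN2A and MAP3K20, and to TWIST2 TPM2 (0.683), DLX2 and IRX5. SNAI2 stood apart, with 1024 genes nearer to it than its nearest regulator, TWIST2, at 3.83. Its nearest genes were CD248 (0.377), a stromal surface glycoprotein, VCAN (0.38), which encodes the matrix proteoglycan versican, and FOSL1 (0.607), an AP-1 subunit. VCAN stood at 3630 CPM in fibroblasts, 62.4, 84.5 and 136 CPM in ES cells and 39.9 CPM in iPS cells. Among the nearest genes to OVOL2 were USP43 (0.59) and the epithelial GTPase gene RAB25 (0.746). Those to ESRP1 were ARHGEF16 (0.561), POU5F1 (0.643), the core pluripotency factor, and the protease inhibitor gene SPINT2 (0.652).

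Among 8 matched genes of 18 other transcription factors of the transition, 4 were higher and 1 lower in fibroblasts than in ES lines. The shares over all genes tested were 8.8% higher and 9.28% lower. In iPS cells against ES lines 1 of the 8 was called, beside 0.109% of all genes. TBX15, a T-box factor of skeletal and dermal mesenchyme, stood at 86.2 CPM in fibroblasts, 2.15, 3.23 and 4.16 CPM in ES cells and 101 CPM in iPS cells. It was called in both comparisons (log2 fold change 4.76, adjusted p = 0.00199, and 4.99, adjusted p = 0.0341, edgeR), the second of which did not pass without No40 or with limma voom. PRRX2, the paralog of PRRX1, was at 146 CPM in fibroblasts, 1.88 to 6.59 CPM in ES cells and 3.38 CPM in iPS cells (5.02, adjusted p = 0.00424 for fibroblasts, and -0.40, adjusted p = 0.911, for iPS cells, edgeR). MEOX2 was higher in fibroblasts (3.75). SNAI3, a relative of SNAI2, had no count there and was at least 26.9-fold lower, taking 3 counts as the floor. TCF4, an E protein, stood at 378 CPM in fibroblasts and 435 CPM in the iPS library, against 116 to 181 CPM in the ES lines. The list's median log2 fold change was 1.52 in fibroblasts and -0.48 in iPS cells, or -0.20 with the gene without a count at its bound, beside -0.15 and -0.11 over all genes. Without No40, 2 of these genes were higher and 0 lower in fibroblasts.

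Of 13 other epithelial regulators tested, 4 fell in fibroblasts and 0 rose, beside 9.28% and 8.8% of all genes tested. GRHL2 and GRHL1, grainyhead factors of epithelia, fell (-7.24 and -7.14), as did RBM47, an RNA-binding splicing regulator (-8.05). Their median log2 fold change was -3.15, or -2.39 with the gene without a count in fibroblasts at its bound. Without No20, 9 of the 13 fell. None of the 13 passed in iPS cells against ES lines (1 higher and 0 lower with unadjusted p below 0.05, 1 higher with DESeq2 and 0 with limma voom). Over all 17462 genes, 971 were higher and 547 lower in that comparison before adjustment. After adjustment 19 genes (0.109%) were called, so the lack of a call in a list of this size says little. The exception without adjustment was TFAP2A, a factor of surface ectoderm, neural crest and trophoblast, which stood at 235 CPM in the iPS library, 3.61 to 11.0 CPM over the ES lines and 1.97 CPM in fibroblasts (4.97, adjusted p = 0.0507, edgeR).

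Of the 20 epithelial genes known as targets of ZEB and SNAI repression that were tested, 17 fell in fibroblasts and 0 rose. The median log2 fold change of the 20 was -6.91. The shares over all genes tested were 9.28% lower and 8.8% higher. The tight junction genes CLDN7 (-9.70), CLDN4 (-6.73) and CGN (-7.33) and the receptor gene ERBB3 (-7.56) were among the 17. None passed in iPS cells against ES lines with edgeR (0 with unadjusted p below 0.05, 0 with DESeq2 and 0 with limma voom). Over all genes tested 0.109% were called in that comparison, so the lack of a call among 20 genes says little. The median log2 fold change was -0.34, or 0.03 without DSY127. Between iPS cells and fibroblasts 15 of the 20 were higher in iPS cells, or 7 with limma voom. The share called higher over all genes tested was 7.69% with edgeR, and limma voom called 105 of 17462 higher.

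Of 21 mesenchymal products tested, 19 rose in fibroblasts and 0 fell, with a median log2 fold change of 4.47. The shares over all genes tested were 8.8% higher and 9.28% lower. COL1A2, a type I collagen chain (6.29), the proteoglycan DCN (5.82), the matrix glycoprotein TNC (6.10) and the protease MMP14 (4.47) rose. In iPS cells against ES lines COL1A2 alone passed (3.78, adjusted p = 0.0205, edgeR), and 0 passed without No40 or 3 without No20. Before adjustment 4 were higher and 3 lower, DESeq2 called 3 higher and 1 lower, and limma voom 1 higher. The median over the 21 was -0.33, and edgeR called 0.109% of all genes in this comparison.

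**Figure D4:**
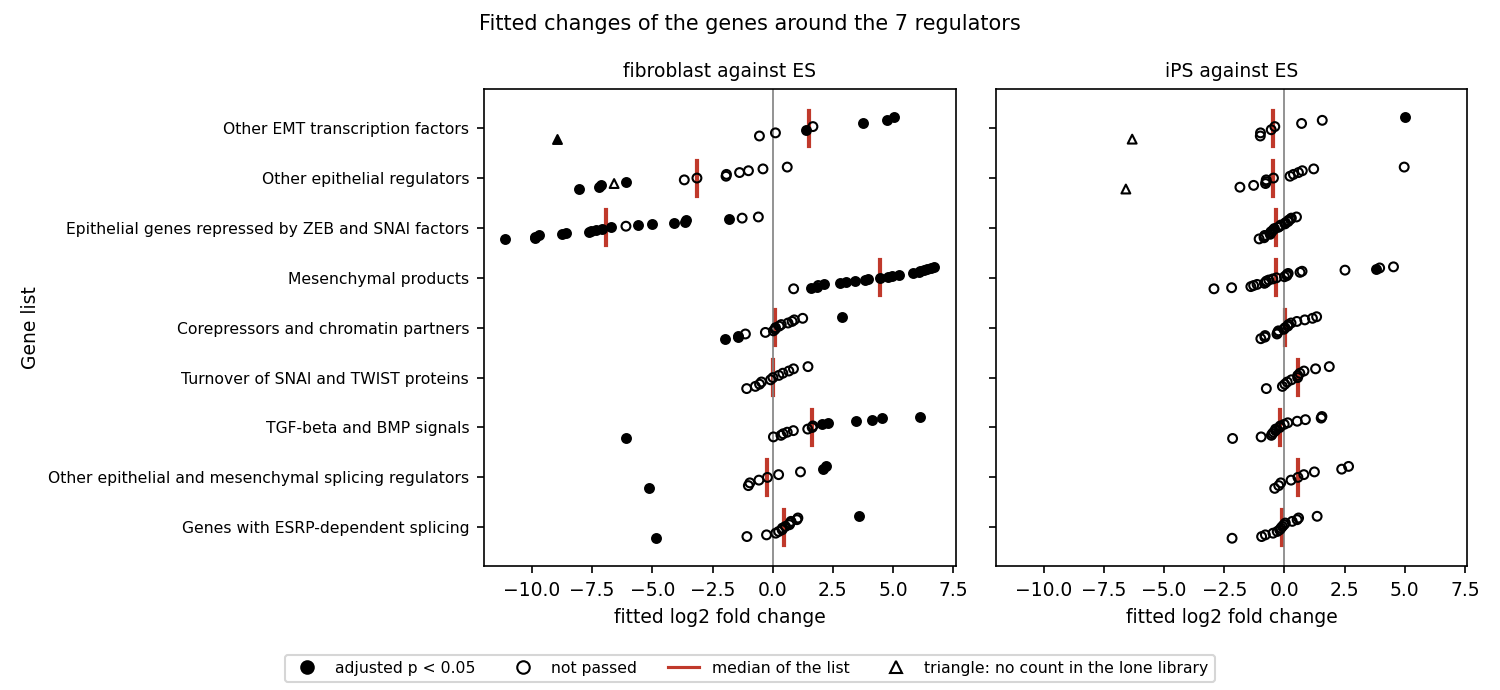
Fitted log2 fold changes of the genes in 9 lists around the regulators, against the ES lines, filled where the adjusted p passed, with the list median in red. Epithelial genes lie below 0 in fibroblasts (median -6.91) and near 0 in iPS cells (median -0.34), and mesenchymal products lie above 0 in fibroblasts (median 4.47) and around 0 in iPS cells (median -0.33).

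To place the iPS library, its excess over the ES mean was expressed as a percentage of the fibroblast excess, for genes called higher in fibroblasts. The percentage was 305% for ZEB2, 249% for PRRX1, 37.3% for ZEB1, 22.1% for TWIST2 and -1.87% for SNAI2. The 19 mesenchymal products ranged from -27.7% to 25.95%, with a median near 0 and 10 of the 19 below 0. FAP (25.95%), COL3A1 (21.8%), COL1A2 (16.5%) and COL1A1 (12.8%) had the highest percentages among the products, and DCN (-0.741%), PDGFRA (-1.35%) and VIM (-1.44%) lay near 0. These values are descriptions of 1 library. With total counts alone the percentages were 429% for ZEB2 and 335% for PRRX1, 48.2% for ZEB1 and 28.3% for TWIST2.

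**Figure D5:**
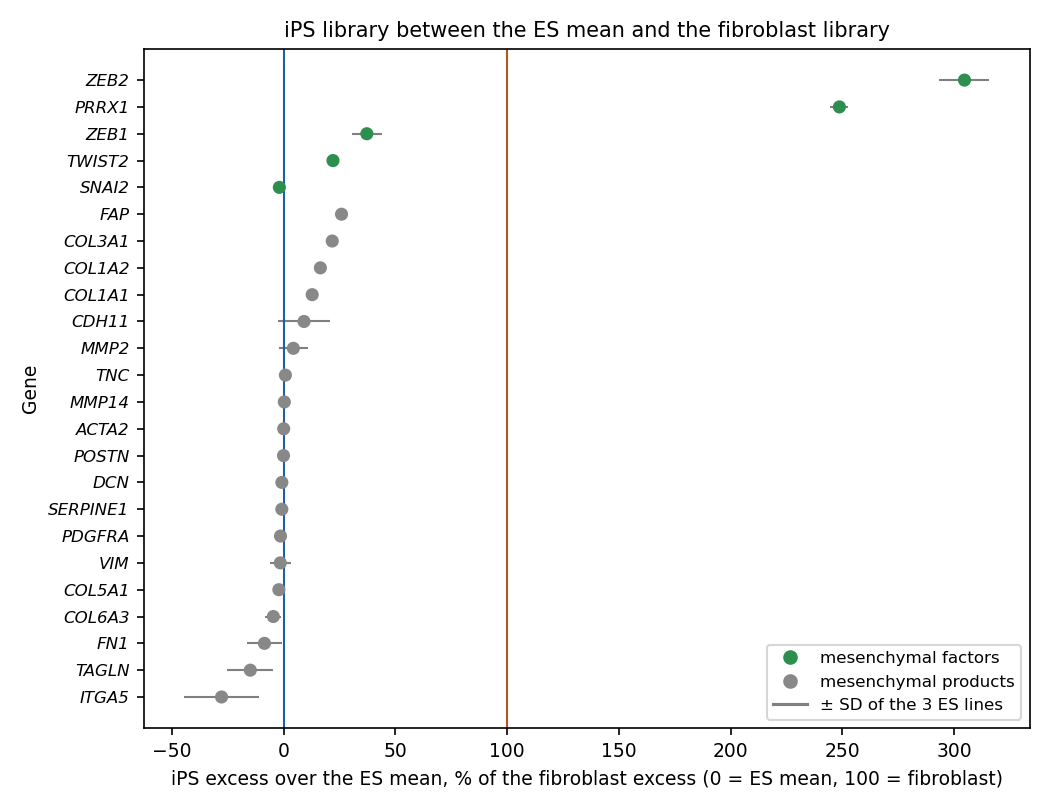
Excess of the iPS library over the ES mean as a percentage of the fibroblast excess, for mesenchymal factors and mesenchymal products called higher in fibroblasts, with the SD of the ES lines on the same scale. ZEB2 (305%) and PRRX1 (249%) lie beyond the fibroblast level at 100, and the products lie between -27.7% and 25.9%.

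Other cell type markers in the iPS library were read beside these levels. The 5 matched muscle markers summed to 47.7 CPM there against 23.1 to 73.5 CPM over the ES lines and 3007 CPM in fibroblasts, and MYOD1 was at 0. The 4 matched neural crest and melanocyte markers summed to 195 CPM against 267 to 299 CPM in the ES lines. The 5 endothelial markers summed to 244 against 304 to 450 CPM, and the 4 neural markers to 623 against 553 to 1109 CPM. The 5 early mesoderm markers summed to 45.5 CPM against 23.6 to 134 CPM with MESP1 at 0, and the 4 endoderm markers to 21.8 against 33.1 to 114 CPM. The 3 trophoblast and amnion markers summed to 235 CPM against 3.84 to 11.7 CPM, all of it TFAP2A, with CDX2 and CYP19A1 at 0. The 3 keratinocyte markers summed to 1.69 CPM against 1.89 to 2.58 CPM with KRT14 at 0. The 3 blood markers summed to 10.1 CPM, above the 5.30 to 9.03 CPM of the ES lines, with PTPRC at 0. In the iPS library 2 of 5 muscle, 1 of 4 neural, 1 of 4 neural crest and melanocyte and 1 of 3 blood markers exceeded every ES line. So did 1 of the 3 trophoblast and amnion markers and, with the most, 4 of the 6 matched fibroblast markers. The count was 0 for pluripotency, endothelial, early mesoderm, endoderm and keratinocyte markers. The share over all genes tested was 26.5%. The part of any such cells in the levels of ZEB2, PRRX1, ZEB1 and TWIST2 was not tested.

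The regulators act with corepressors such as CtBP and histone deacetylase complexes. Of 15 corepressor and chromatin genes, CTBP2 (-2.00), HDAC2 (-1.44) and EZH2 (-1.43) were lower and KAT2B, an acetyltransferase gene, was higher (2.89) in fibroblasts. Over all genes tested 8.8% were called higher and 9.28% lower in fibroblasts. Without No40 or DSY127, 1 was lower. None of the 15 passed in iPS cells against ES lines with edgeR (3 higher and 1 lower with unadjusted p below 0.05, 0 with DESeq2 and 0 with limma voom). Over all 17462 genes 19 were called in that comparison, with 971 higher and 547 lower before adjustment. Genes for the turnover of SNAI and TWIST proteins, among them the ubiquitin ligase genes FBXW7 and FBXO11, gave no call of 11 in either comparison with the ES lines. With unadjusted p below 0.05, 2 were higher and 1 lower in fibroblasts and 2 were higher in iPS cells. Over all 17462 genes the unadjusted counts were 2744 higher and 3188 lower in fibroblasts. DESeq2 called 0 in fibroblasts and 1 higher in iPS cells, and limma voom 0 in both. Without No20, 1 turnover gene was higher in fibroblasts and 1 in iPS cells. FBXO11 stood at 299 CPM in the iPS library against 75.5 to 93.9 CPM in the ES lines (1.86, adjusted p = 0.0963, edgeR).

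Transforming growth factor beta (TGF-beta) induces ZEB and SNAI factors in many epithelia. Of 15 genes of TGF-beta and bone morphogenetic protein (BMP) signalling, 6 were higher and 1 lower in fibroblasts. The shares over all genes tested were 8.8% higher and 9.28% lower. The type II receptor gene TGFBR2 stood at 238 CPM against 1.67 to 4.35 CPM in ES cells and 3.38 CPM in iPS cells (6.12, adjusted p = 0.00199, edgeR, for fibroblasts against ES lines). The ligand gene TGFB1 stood at 209, 7.31 to 17.98 and 6.09 CPM in that order (4.13, adjusted p = 0.0039, edgeR), LTBP2 rose (4.54) and BMP7, a ligand gene, fell (-6.11). Without No20, 9 were higher. None of the 15 passed in iPS cells against ES lines with edgeR (2 higher and 0 lower with unadjusted p below 0.05, 0 with DESeq2 and 0 with limma voom). Over all genes tested 0.109% were called in that comparison.

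ESRP1 acts by splicing, which counts per gene do not measure. Of 14 genes with ESRP-dependent splicing, the total counts of FGFR2 fell (-4.86, adjusted p = 0.00411, edgeR) and those of CD44 rose (3.58, adjusted p = 0.00637, edgeR) in fibroblasts, and the other 12 did not pass. Over all genes tested 8.8% were called higher and 9.28% lower in fibroblasts, so the list did not stand out by its calls. None of the 14 passed in iPS cells against ES lines with edgeR (0 higher and 2 lower with unadjusted p below 0.05, 1 lower with DESeq2 and 0 with limma voom). Over all genes tested 0.109% were called in that comparison. Of 9 other splicing regulators, MBNL2 (2.07) and MBNL3 (2.19) rose and RBFOX1 (-5.15) fell in fibroblasts. MBNL2, of the muscleblind family, stood at 234 CPM in the iPS library, 28.3 to 42.1 CPM over the ES lines and 155 CPM in fibroblasts (iPS against ES 2.66, adjusted p = 0.0716, edgeR). Of the 9, 1 rose without No40, without DSY127 or with total counts alone, and 3 rose without No20. In iPS cells against ES lines 0 of the 9 passed with edgeR, 1 was higher with DESeq2 and 0 with limma voom. With unadjusted p below 0.05, 4 were higher and 0 lower, beside 971 and 547 of all 17462 genes (edgeR).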

How the data were processed

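RNA was sequenced in 5 libraries of cultured marmoset cells. The deposited values are raw counts of reads for each gene. The series table and all 5 per-library files hold equal counts. Per the submitters' processing notes, the tools were featureCounts 1.5.2, STAR 2.5.3a and Trim Galore 0.4.0, with no role given. Strand settings, the treatment of multi-mapping reads and the build were not stated, so genes with close copies may share reads. Symbols came from a gene name table that matched 12660 of 30811 identifiers (41.1%). Of 172 entries in 10 gene lists, 127 matched, and of 60 marker entries 48. The 4 ID genes, inhibitors of helix-loop-helix factors, had no match and are not analysed here.

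In R 4.3.3, edgeR 4.0.16 (filterByExpr, TMM, estimateDisp, glmQLFit, glmQLFTest) fitted all 5 libraries with 3 groups and 2 residual degrees of freedom. Benjamini-Hochberg adjustment ran over 17462 genes, and the common biological coefficient of variation came to 0.458. Per-length levels used the gene lengths of the files. Profiles used log2 CPM with a prior count of 2. DESeq2 1.42.0, limma 3.58.1 and other settings were alternatives. The fit was tested on simulated data. Fits that leave the other lone library out were added after seeing the data.

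Named genes are the 7 regulators, from each list up to 4 genes with the lowest adjusted p in fibroblasts and 2 in iPS cells, and the 3 genes nearest each regulator in profile. CDH1, CDH2, VIM, PDGFRA, FAP, COL3A1, EOMES, MIXL1 and GATA6 were added to these with their values known. The regulators and lists were chosen with earlier results of these data known. Some genes that this rule names are not reported here.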

Additional observations from a re-analysis of the deposited data

How the results depend on the processing

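No regulator reversed in any alternative (RLE factors, total counts alone, no or a strict low-count filter, DESeq2, limma voom, each ES line left out, thinning to the iPS total, and fits without the other lone library). Fibroblasts against ES lines gave 3157 genes, 4773 with DESeq2 and 1742 to 4550 with an ES line left out, and 5 to 7 regulators with a line left out. The iPS comparison with ES lines gave 19 genes, 204 with no filter, 416 with DESeq2, 5 with limma voom, 71 after thinning, and 0 to 268 with a line left out. It gave 1 regulator, 3 with no filter or with DESeq2, 2 with the strict filter, after thinning or in the fit on iPS and ES libraries alone, 0 with limma voom, and 0 to 4 with a line left out. The iPS comparison with fibroblasts gave 2213 genes, 4284 with DESeq2, 169 with limma voom and 1076 to 3905 with a line left out, and 3 regulators, 1 with limma voom and 3 to 4 with a line left out. The cause of these shifts was not tested. No paired analysis was possible because the labels give no replicate numbers shared between groups and only the ES group holds more than 1 library. With 5746449 counts, the iPS library limits SNAI2 (9 counts) and OVOL2 (68 counts) most.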
